A study of Mus musculus with 5 samples.

Results

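The genes described here are 10 genes of myofibroblasts and contractile cells, chosen by symbol and joined to the Ensembl identifiers of the count files: Acta2, Tagln, Myl9, Cnn1, Tpm1, Tpm2, Cald1, Pdgfrb, Fap and S100a4. All 10 were found among the 46983 genes listed, and 9 of them passed the filter on low counts; Cnn1 did not. The libraries came from mice labelled C57/BL6 that carried orthotopic tumours of the mouse mammary carcinoma line EO771. The 2 Treg-ablated libraries came from tumours given diphtheria toxin (2 doses of 50 µg per kg) to remove regulatory T (Treg) cells, with cells sorted on day 4. The 3 control libraries came from untreated tumours, and no sort day is given for them. Effects of the toxin, of Treg loss and of any difference in sort day therefore cannot be told apart. In both groups the sorted cells are labelled tumour-associated macrophages (CD45+ CD11b+ Ly6G- F4/80+); the labels name no allele or driver for the ablation. The labels do not say whether replicates are separate animals; p-values therefore reflect library-to-library spread, part or all of which may be technical.

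Myofibroblasts are fibroblasts that have taken on a contractile apparatus like that of smooth muscle. Alpha smooth muscle actin, encoded by Acta2, assembles into stress fibres on which nonmuscle myosin pulls, while tropomyosins, caldesmon, calponin and transgelin bind and stabilise the actin filaments. In tumours such cells form part of the stroma, where they lay down and contract matrix; Pdgfrb and Fap are used to mark stromal fibroblasts and pericytes. Several of these genes also work outside muscle: Cald1, Tpm1 and Tpm2 have nonmuscle isoforms in many cell types, and S100a4 is made by macrophages and other leukocytes as well as by fibroblasts. Gene-level counts do not separate such isoforms.

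Totals ran from 13122668 to 20156835 counts per library. Values are CPM (counts scaled to the TMM-adjusted library size), and a level compared between genes is CPM per kilobase of exon. That length covers all exons annotated for a gene, used or not (18313 bases for Ptprc). Levels compared between genes are therefore approximate, and may be too low where many exons are annotated. Transcripts of genes used as fibroblast markers were abundant in libraries labelled as macrophages. The median level of 12 fibroblast markers lay between 16.9 and 22.6 CPM per kilobase across the 5 libraries, against 4.37 to 8.66 for 12 mature macrophage markers. Pericyte and smooth muscle markers had a median of 0.220 to 0.285 CPM per kilobase, and epithelial and myoepithelial markers 0.0378 to 0.183. In the latter list the keratin genes Krt18 and Krt8 stood far above that median, at 128 to 159 and 41.4 to 49.8. The gate genes Ptprc (CD45), Itgam (CD11b) and Adgre1 (F4/80) were at most 1.80, 3.78 and 3.04 CPM per kilobase. Fewer cells of a type and less RNA per cell cannot be told apart in these bulk samples, and no value below is assigned to a cell type.

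Upstream sequence is shown for Acta2, the muscle actin gene among the 10, which changed, and for Myl9, the only one of the members with an exact CArG box in its window. The CArG box is the element that serum response factor (SRF) binds in many muscle genes. RefSeq start-site windows (GRCm38.p6, 250 bases before to 50 after the start) were matched for 7 members, in 8 windows: Acta2, Myl9, Cnn1, Tpm1, Tpm2, Cald1 and S100a4. Windows of Pdgfrb, Fap and Tagln were not analysed here. Capitals mark CArG boxes and boxes that differ from one by a single G or C among the inner bases. The Acta2 stretch is chr19:34255374-34255623, minus strand, and the Myl9 stretch is chr2:156775214-156775419, plus strand, cut short where the exon in the count files starts.
Acta2: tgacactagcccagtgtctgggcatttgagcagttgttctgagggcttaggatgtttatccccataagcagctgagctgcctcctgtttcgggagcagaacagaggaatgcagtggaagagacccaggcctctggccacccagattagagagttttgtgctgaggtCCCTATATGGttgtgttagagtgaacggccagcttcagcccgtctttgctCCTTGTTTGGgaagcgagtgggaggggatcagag
Myl9: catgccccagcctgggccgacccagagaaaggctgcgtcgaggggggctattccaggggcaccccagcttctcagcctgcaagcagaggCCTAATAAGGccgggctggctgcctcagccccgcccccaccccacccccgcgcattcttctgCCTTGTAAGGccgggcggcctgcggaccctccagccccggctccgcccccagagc

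The Acta2 stretch held 2 boxes of the relaxed form, CCCTATATGG and CCTTGTTTGG, which began 84 and 34 bases before its end. Myl9 held the exact box CCTAATAAGG, 117 bases before the end of its stretch, and the relaxed box CCTTGTAAGG, 55 bases before it. The boxes were searched on both strands; every exact box is also a relaxed one. Of 32851 windows genome-wide, 1.63% held an exact and 9.98% a relaxed box. The relaxed form was added after the exact one had found no match in Acta2. The other 6 windows, those of Cnn1, Tpm1, Tpm2, Cald1 and S100a4, held neither form. A match is a description of these letters only.

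The members differed far more in level among themselves than between groups. From highest to lowest in controls, the order per kilobase was S100a4, Tpm1, Cald1, Tpm2, Acta2, Tagln, Pdgfrb, Myl9, Fap and Cnn1. S100a4 had 195 to 263 CPM per kilobase over the 5 libraries and Cnn1 0.0846 to 0.127. Over all 5 libraries the ranges of neighbours in this order did not overlap, except those of Pdgfrb (1.28 to 2.99) and Myl9 (0.862 to 1.36). The nonmuscle-capable genes Tpm1, Cald1 and Tpm2 thus stood above the muscle genes Acta2, Tagln, Myl9 and Cnn1 in each library.

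**Figure D1:**
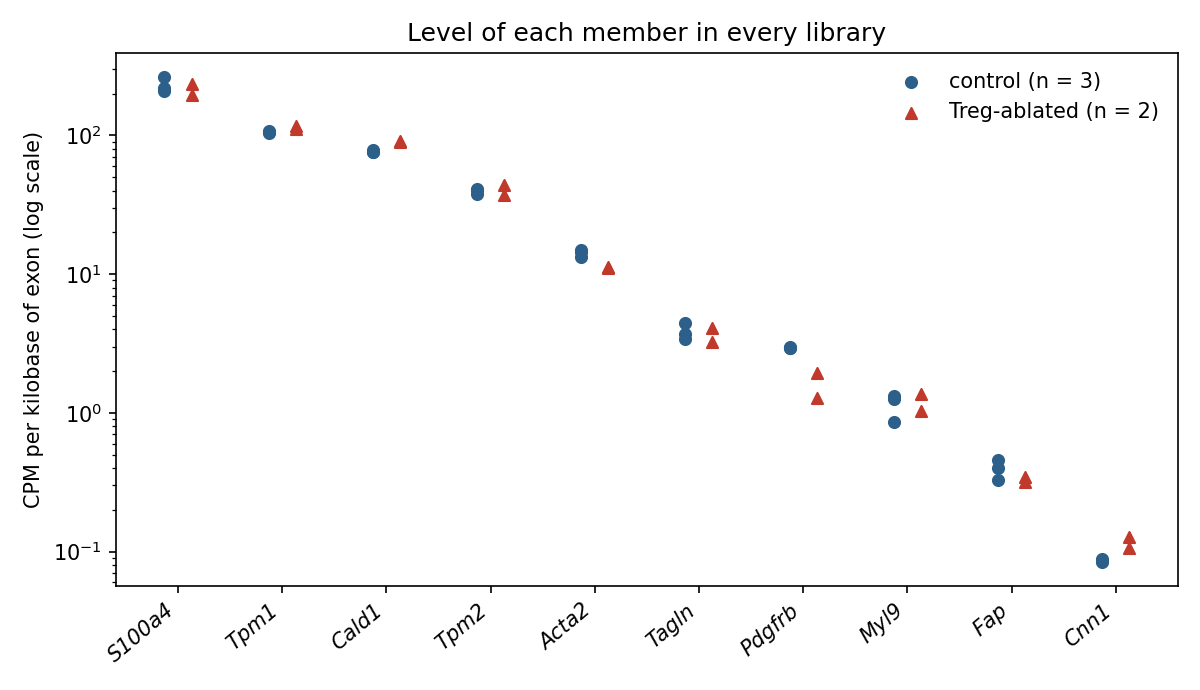
Level of each of the 10 genes in CPM per kilobase of exon (log axis) by gene; circles are the 3 control and triangles the 2 Treg-ablated libraries. S100a4 lies at 195 to 263 and Cnn1 at 0.0846 to 0.127 CPM per kilobase, and the spread within a gene is small beside the distance between genes.

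After ablation Pdgfrb and Acta2 fell and Cald1 rose, while the other 6 tested members did not pass. In edgeR's quasi-likelihood test, 3 of 9 tested members were called (1 higher, 2 lower), against 25.8% of the 14580 genes tested (13.5% higher and 12.3% lower). The members' median log2 fold change was −0.073, against −0.0062 over all genes tested. The groups did not overlap for 4 of the 9, namely Pdgfrb, Acta2, Cald1 and Tpm1, where 52.5% of all genes tested showed no overlap (26.9% with the ablated libraries above and 25.6% with them below). The members' counts are near these shares, and nothing is read from them about the members. The same shares are the background for the counts of called genes in the other lists below.

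Pdgfrb encodes the beta receptor for platelet-derived growth factor, a receptor tyrosine kinase of pericytes and fibroblasts. It is ENSMUSG00000024620, on chromosome 18 from 61045150 to 61085061 (GRCm38, plus strand). It had 6.998 and 10.6 CPM in Treg-ablated replicates 1 and 2, and 16.4, 16.1 and 16.02 CPM in control replicates 1, 2 and 3. Both Treg-ablated libraries lay below all 3 controls, and they differed from each other more than the controls did. The means were 8.78 ± 2.52 (SD, n = 2) and 16.2 ± 0.1996 CPM (SD, n = 3), a 1.86-fold decrease (log2 fold change −0.90, SE 0.152, adjusted p = 0.00280). Pdgfrb passed when any single library was left out, with log2 fold changes from −1.20 without Treg-ablated replicate 2 to −0.61 without Treg-ablated replicate 1. It did not pass a test against a fold of 1.5 (adjusted p = 0.445).

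The receptor gene for colony-stimulating factor 1, Csf1r, a macrophage gene, starts 20511 bases beyond the end of Pdgfrb on the same strand. Csf1r had 22.3 and 20.5 CPM in the Treg-ablated and 52.5, 50.2 and 44.2 CPM in the control libraries, and fell 2.28-fold (adjusted p = 6.79e-05). Both neighbours were thus lower in both ablated libraries. Per kilobase, the Pdgfrb to Csf1r ratio was 0.280 and 0.459 in the Treg-ablated and 0.278, 0.286 and 0.324 in the control libraries, and the groups overlapped. The paralog Pdgfra, the alpha receptor, had 77.7 and 89.7 CPM after ablation and 101, 96.7 and 93.3 CPM in controls; its log2 fold change of −0.21 did not pass (SE 0.0791, adjusted p = 0.0704). The ratio of Pdgfrb to Pdgfra, which does not depend on how libraries are scaled, was 0.165 and 0.215 after ablation and 0.297, 0.304 and 0.314 in controls. The 2 groups of ratios did not overlap, but neither did those of Pdgfrb alone, so the ratio adds no separate support. A two-sided exact permutation test gave p = 0.1, the smallest that 2 against 3 libraries allow, so that test cannot pass 0.05.

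Among the ligands of these receptors, Pdgfa rose and no other tested ligand passed. Pdgfa, whose product binds the alpha receptor, had 33.7 and 26.3 CPM after ablation and 14.7, 13.02 and 13.2 CPM in controls (log2 fold change 1.15, SE 0.120, adjusted p = 0.000302). Pdgfb, a ligand of both receptors, had 16 and 17 counts after ablation and 34, 27 and 21 in controls; its log2 fold change of −0.56 did not pass (SE 0.329, adjusted p = 0.238). Pdgfc was at a log2 fold change of 0.15 (adjusted p = 0.111). Pdgfd was not tested, with at most 4 counts in any library. In all, edgeR called 1 of the 4 tested genes of this list higher and 0 lower; 1 was lower at an unadjusted p under 0.05, and DESeq2 and limma-voom called 0 lower. Pdgfra passed as lower when genes with a single count in any library were kept, with the gene length offset, and without Treg-ablated replicate 2. With the gene length offset 2 genes of the list were higher, Pdgfc being the second.

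Acta2 encodes alpha smooth muscle actin, the standard marker of the myofibroblast state (ENSMUSG00000035783, chromosome 19, 34241090 to 34255336, minus strand). It had 19.9 and 19.6 CPM in Treg-ablated replicates 1 and 2, and 25.9, 23.5 and 26.5 CPM in control replicates 1, 2 and 3. Both ablated libraries lay below every control. The means were 19.8 ± 0.219 (SD, n = 2) and 25.3 ± 1.58 CPM (SD, n = 3), a 1.28-fold decrease (log2 fold change −0.35, SE 0.094, adjusted p = 0.0211). The call ended without Treg-ablated replicate 1, Treg-ablated replicate 2 or control replicate 1 (adjusted p = 0.0608, 0.071 and 0.0534), although the log2 fold change stayed between −0.40 and −0.32 when single libraries were left out. Actin genes resemble each other in sequence, so reads that match more than 1 of them may have been lost or misplaced. The Acta2 value is uncertain to that extent.

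Cald1, which encodes the actin and myosin binding protein caldesmon, went the other way (ENSMUSG00000029761, chromosome 6, 34598500 to 34775473, plus strand). It had 1082 and 1096 CPM in the Treg-ablated libraries and 952, 910 and 914 CPM in the controls, so both ablated libraries lay above every control. The means were 1089 ± 9.92 (SD, n = 2) and 925 ± 22.7 CPM (SD, n = 3), a 1.18-fold increase (log2 fold change 0.24, SE 0.0669, adjusted p = 0.027). Leaving out Treg-ablated replicate 1 or 2, or control replicate 2 or 3, ended the call (adjusted p = 0.075, 0.0896, 0.126 and 0.0619). An offset on GC content also ended it (log2 fold change 0.15, adjusted p = 0.089).

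**Figure D2:**
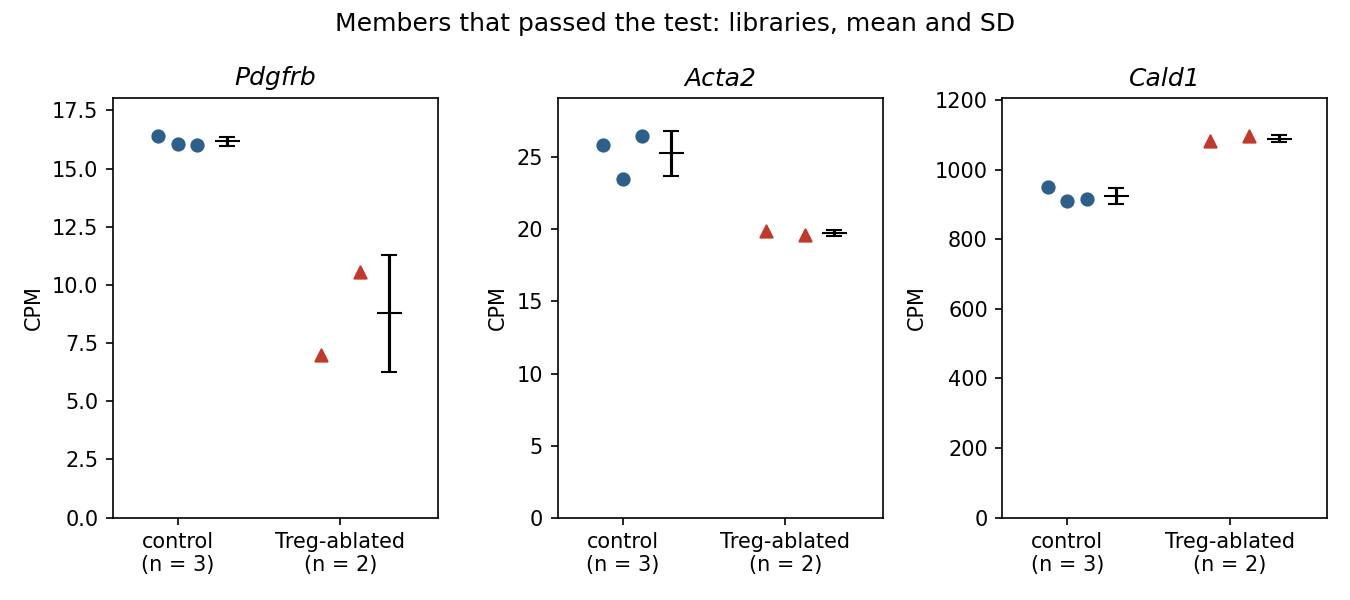
CPM of Pdgfrb, Acta2 and Cald1 by group; circles are control (n = 3) and triangles Treg-ablated libraries (n = 2), with bars for mean and SD. Both ablated libraries lie below the controls for Pdgfrb (6.998 and 10.6 against 16.02 to 16.4) and Acta2 (19.9 and 19.6 against 23.5 to 26.5), and above them for Cald1.

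Within a library Acta2 can be set against Cald1, a pair chosen because one fell and the other rose. The ratio of Acta2 to Cald1 per kilobase was 0.124 and 0.121 after ablation and 0.184, 0.174 and 0.196 in controls. These ratios need no library scaling; they are a description of the pair and no test of it.

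The other smooth muscle genes were low and did not pass. Tagln, which encodes the actin-bundling protein transgelin, had 6.49 and 5.13 CPM after ablation and 5.84, 7.01 and 5.43 CPM in controls (log2 fold change −0.073, SE 0.170, adjusted p = 0.784). The highest and the lowest of these 5 values were thus in a control and an ablated library, and the groups overlapped. Tagln shares 65 exon bases with Pcsk7 on the opposite strand, and the recorded counting command sets no strand option, so reads over that stretch cannot be assigned to one of the 2 genes.

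Myl9, the regulatory light chain of smooth muscle myosin, was counted 19 and 21 times after ablation and 23, 20 and 21 times in controls. That is 1.20 and 1.58 CPM against 1.55, 1.002 and 1.46 CPM, with overlapping groups (log2 fold change 0.073, SE 0.308, adjusted p = 0.885). The close relatives Myl12a and Myl12b, nonmuscle regulatory light chains, were far more abundant, with 9860 and 7701 counts of Myl12a after ablation. Cnn1, the smooth muscle calponin, had 4 and 4 counts after ablation and 3, 4 and 3 in controls. Summed over libraries and divided by library size, Cnn1 gave a ratio of 1.35 (exact 95% interval 0.464 to 3.804, counting error only). A change of this size in Cnn1 was not detectable at this depth.

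Tropomyosins wind along the actin filament and set which myosins can bind it. Tpm1 had 755 and 717 CPM after ablation and 681, 679 and 701 CPM in controls; the ablated libraries lay above the controls, and the log2 fold change of 0.10 did not pass (SE 0.0666, adjusted p = 0.298). Tpm2 had 127 and 108 CPM against 111, 118 and 120 CPM, with the 2 ablated libraries at either end (log2 fold change 0.014, SE 0.0807, adjusted p = 0.915). The mainly nonmuscle paralogs Tpm3 and Tpm4, which are not among the 10, both passed as higher. Tpm4 had 735 and 734 CPM after ablation and 573, 583 and 598 CPM in controls (log2 fold change 0.33, SE 0.0647, adjusted p = 0.00542). Of the summed level per kilobase of the 4 genes, Tpm1 made up 20.7% and 20.4% after ablation and 23.2%, 22.6% and 22.6% in controls, and Tpm4 59.5% and 61.6% against 57.4%, 57.2% and 56.9%. Tpm2 made up 7.77% and 6.87% after ablation against 8.40%, 8.80% and 8.67%. The groups of shares overlapped for Tpm3 alone. Shares within a library are tied to each other, so a larger share of Tpm4 lowers the rest. The lower share of Tpm1 is thus no fall of Tpm1, whose CPM was higher in the ablated libraries. Tropomyosin genes resemble each other, so reads that match more than 1 of them may have been lost or misplaced, which makes these values uncertain.

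Fap encodes fibroblast activation protein, a serine peptidase of activated stroma. It was counted 31 and 24 times after ablation and 34, 37 and 37 times in controls, or 1.95 and 1.81 CPM against 2.28, 1.85 and 2.58 CPM. The groups overlapped, and the log2 fold change of −0.23 did not pass (SE 0.243, adjusted p = 0.528). Summed counts gave an ablated-to-control ratio of 0.861 (exact 95% interval 0.610 to 1.20, counting error only). A change of this size in Fap was not detectable at this depth.

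S100a4 encodes a small calcium-binding protein that binds nonmuscle myosin and was the highest member per kilobase. It had 138 and 114 CPM after ablation and 129, 121 and 153 CPM in controls, so the groups overlapped (log2 fold change −0.092, SE 0.109, adjusted p = 0.567). Of its 584 exon bases, 302 are shared with the predicted gene Gm42674 on the same strand, which had at most 4 counts in any library. Reads over that stretch cannot be assigned to one of the 2 genes and may have been left out, so the S100a4 level is uncertain to that extent. In the S100 list edgeR called 1 of 10 tested genes higher and 0 lower, as did DESeq2 and limma-voom. Over all genes tested the edgeR shares were 13.5% higher and 12.3% lower. In the list 1 gene was lower at an unadjusted p under 0.05. The gene called was S100a11 (log2 fold change 0.35, adjusted p = 0.0420). Leaving out control replicate 1, control replicate 2 or Treg-ablated replicate 1 ended that call, as did the offset on GC content.

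**Figure D3:**
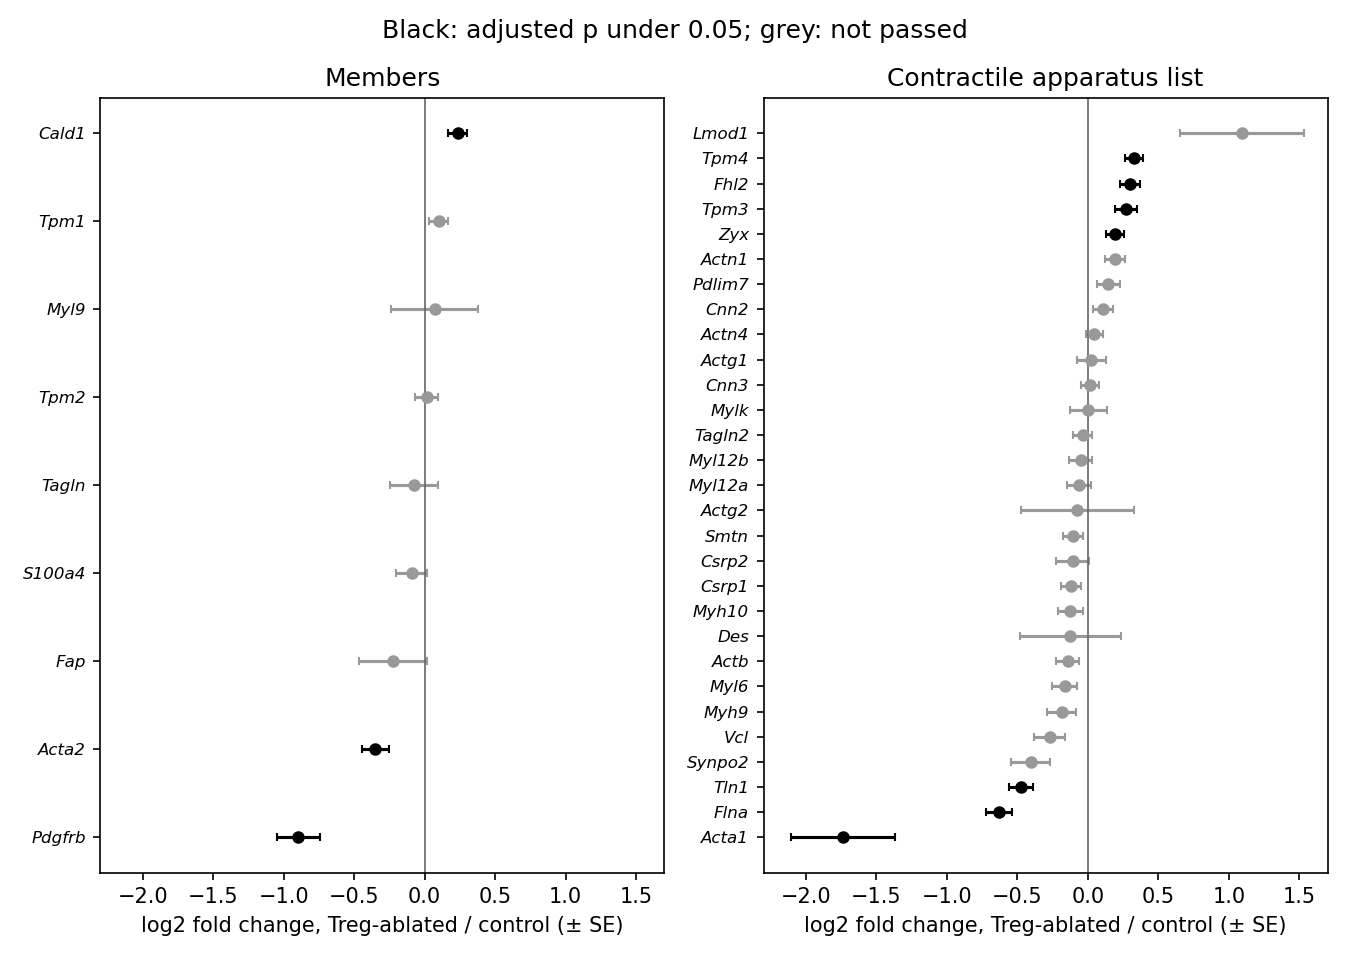
Log2 fold change, Treg-ablated over control, with SE, for the 9 tested members (left) and the 29 tested genes of the contractile apparatus list (right); black points passed an adjusted p of 0.05. Members run from −0.90 for Pdgfrb to 0.24 for Cald1, and called genes of the list lie on both sides of 0.

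Other genes of the contractile apparatus went both ways. Of 31 listed genes 29 were tested, with 4 higher, 3 lower and 22 that did not pass, and a median log2 fold change of −0.062. Over all genes tested 13.5% were higher and 12.3% lower. The counts of the list are near these shares, and nothing is read from them about the list. The crosslinker filamin A (Flna) fell from 2265 ± 112 (SD, n = 3) to 1463 ± 177 CPM (SD, n = 2), a change of −0.63 on the log2 scale (SE 0.0904, adjusted p = 0.00128). Talin (Tln1), which ties integrins to actin, fell by 0.47 on the log2 scale (adjusted p = 0.00394). Acta1, the skeletal muscle actin, had 6 and 5 counts after ablation and 20, 27 and 16 in controls (log2 fold change −1.74, SE 0.371, adjusted p = 0.00809). The higher genes were Tpm3, Tpm4, Zyx and Fhl2, the last 2 encoding LIM proteins of focal adhesions; Zyx, Fhl2 and Tpm3 were named after their values were seen. Higher genes numbered 2 when either Treg-ablated replicate 1 or control replicate 1 was left out, 1 without control replicate 2, and 7 with the GC content offset. Lower genes numbered 5 without Treg-ablated replicate 2, without control replicate 3 or with the gene length offset, and 6 when genes with a single count in any library were kept.

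Markers of the cells that use these genes did not move as 1 block. Among 12 fibroblast markers 6 fell, 1 rose and 5 did not pass, with a median log2 fold change of −0.37. Their summed level overlapped between groups, at 18956 and 21331 CPM after ablation against 19857 to 23747 CPM in controls. Col3a1, named after its value was seen, had 7467 to 9556 CPM over the 5 libraries and did not pass (log2 fold change 0.043, adjusted p = 0.803). Mmp2, a matrix metalloproteinase, fell 1.82-fold, the collagen gene Col1a1 1.55-fold and Postn, which encodes periostin, 1.53-fold. Dcn, which encodes decorin and was named after its value was seen, rose 1.32-fold. Without control replicate 2, 4 were lower. Of 8 tested pericyte and smooth muscle markers 1, Notch3, was lower (log2 fold change −0.80, adjusted p = 0.0281). Over all genes tested 12.3% were lower. Notch3 did not pass with DESeq2, with the GC content offset, or when Treg-ablated replicate 1 or 2 or control replicate 1 or 3 was left out. The summed level of all 10 genes of that list was 20.6 and 22.7 CPM after ablation and 22.9 to 24.5 CPM in controls. Myh11, the smooth muscle myosin, had at most 12 counts in any library.

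Acta2 is also made by myoepithelial cells. Their markers Krt5 and Krt14 had at most 3 counts in any library, whereas the epithelial keratin genes Krt18 and Krt8 of the same list had 180 to 222 and 74.8 to 89.8 CPM. The list summed to 300.5 and 259 CPM after ablation against 292 to 317 CPM in controls, with 0 of 3 tested genes called by edgeR, DESeq2 or limma-voom and 0 at an unadjusted p under 0.05. Of 8 skeletal muscle genes, Myh1, Myh2, Myh4 and Myl1 had 0 counts in all 5 libraries, and Ckm at most 1. Acta1 and the troponin gene Tnnt3 were lower; Tnnt3 had 25 and 16 counts after ablation and 29, 62 and 38 in controls (log2 fold change −0.89, SE 0.282, adjusted p = 0.0412). The Tnnt3 call was lost with DESeq2 (adjusted p = 0.106), limma-voom (0.0529), the GC content offset (0.0599), the replicate block (0.0589) and the test against a fold of 1.5. It was also lost without Treg-ablated replicate 1 (0.0588) or 2 (0.162), and without control replicate 2 (0.162) or 3 (0.0648). The troponin gene Tnni2 had 14 to 37 counts and did not pass (adjusted p = 0.325). Markers of other cells moved with the same contrast. The summed level of 10 T cell markers was 45.2 and 48.4 CPM after ablation against 13.03 to 17.0 CPM in controls, with 9 higher. That of 8 B and plasma cell markers was 65.8 and 81.9 against 19.9 to 23.8 CPM, with 6 higher. Mature macrophage markers summed to 287 and 251 against 424 to 449 CPM, with 8 of 12 lower. Endothelial markers summed to 18.5 and 17.2 against 18.9 to 21.1 CPM, with 0 of 5 tested called by edgeR, DESeq2 or limma-voom and 0 at an unadjusted p under 0.05. The part of these shifts in the changes of Pdgfrb, Acta2 and Cald1 was not tested.

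**Figure D4:**
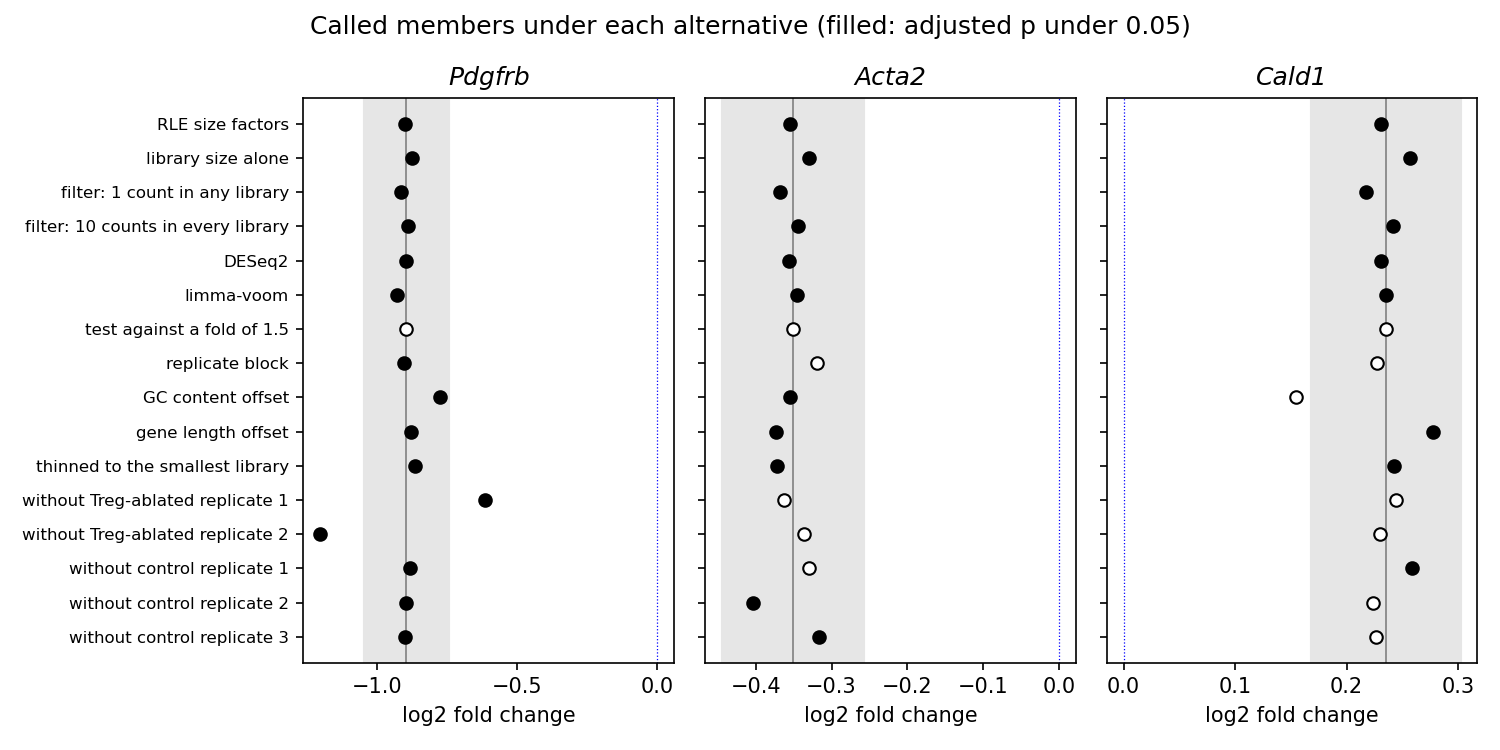
Log2 fold change of Pdgfrb, Acta2 and Cald1 under each of the 16 alternatives; filled points passed an adjusted p of 0.05, the grey line and band are the value reported and its SE, and the dotted line is 0. All points keep their sign, Pdgfrb is open under the test against a fold of 1.5 alone, and Acta2 and Cald1 are open in several.

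The genes whose profile over the 5 libraries was most like that of Acta2 were Mien1, Slc35f6 and Gne. Their centred log2 CPM differed from those of Acta2 by a root mean square of 0.0295, 0.0308 and 0.0317, over 5 libraries and out of 8881 named genes with a mean of at least 10 CPM. Slc35f6 and Gne passed as lower in the edgeR test (adjusted p = 0.0264 and 0.00596) and Mien1 did not (adjusted p = 0.0539). These genes were chosen for their likeness to Acta2 over the same libraries, so their direction follows from the choice. A close match among 8881 genes over 5 libraries is no sign of a link to Acta2.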

How the data were processed

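RNA of cells sorted from EO771 tumours was sequenced in 5 libraries, 2 Treg-ablated and 3 control, grouped by the sample titles. The deposited values are raw counts of fragments over exons, 1 value per gene, from featureCounts 1.6.2 run by the authors against a filtered GRCm38 gene set (Ensembl 83) with neither a strand nor a multi-mapping option, per the file headers. Tools named in the submitters' processing notes are Trimmomatic 0.33, FastQC 0.11.5, DESeq2 1.16.1 and Subread 1.6.2. Symbols were joined by identifier for 46488 of 46983 genes.

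Genes kept by filterByExpr (14580) were TMM-scaled and tested with the quasi-likelihood test of edgeR 4.0.16 (R 4.3.3), with no replicate block. P-values were adjusted by Benjamini-Hochberg over all genes (threshold 0.05), and SE was computed as log2 fold change over the root of the F statistic. A count of 3 corresponds to 0.150 to 0.226 CPM. Libraries of a group differed beyond sampling noise (chi-square per degree of freedom 4.19 to 7.90), so none was treated as a duplicate. The test was also run on counts simulated with a common dispersion for all genes, in which the changes put in were 1.5-fold or larger. That run says nothing about the smaller changes of Acta2 and Cald1, or about genes whose spread differs. Members and lists were chosen with earlier results of these data known. All members are named, with up to 4 genes per other list by smallest p, and the gate genes; other genes are named after their values were seen. A further gene list is not reported here. Alternatives were other scalings, low-count filters, DESeq2 1.42.0, limma-voom (limma 3.58.1), a test against a fold of 1.5, a replicate block, thinning, offsets on GC content (GENCODE M21 transcripts) and gene length, and leaving out each library. Without a Treg-ablated library, the 1 left is assumed to vary like the controls.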

Additional observations from a re-analysis of the deposited data

How the results depend on the processing

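Among the alternatives listed, Pdgfrb lost its call under 1 of 16, the test against a fold of 1.5, Acta2 under 5 and Cald1 under 7, and none of the 3 changed sign. Against a fold of 1.5 the calls numbered 98 higher and 23 lower over all genes and 0 and 0 among the members; that test demands a larger change by construction. Deviations of same-numbered libraries from their group means correlated across genes at −0.23 and −0.021. With 2 Treg-ablated libraries these deviations mirror each other, so the check cannot decide whether the title numbers pair the libraries. With the replicate block, which leaves fewer residual degrees of freedom, 1296 genes were higher and 1116 lower, with 0 members higher and 1 lower. The GC content offset left 0 members higher; the cause was not tested. Leaving out 1 library at a time gave 812 to 1687 genes higher and 554 to 1538 lower, the lowest without control replicate 2, with 0 to 1 members higher and 1 to 2 lower. Members that did not pass changed sign in places without passing: Tpm2 was at −0.0031 when genes with a single count in any library were kept and S100a4 at 0.0043 with the replicate block. Leaving out single libraries gave log2 fold changes of −0.26 to 0.079 for Tagln, −0.13 to 0.27 for Myl9, −0.11 to 0.13 for Tpm2 and −0.24 to 0.044 for S100a4. Depth limits Cnn1, Myl9 and Fap, which had at most 4, 23 and 37 counts in any library. The fold changes of Acta2 and Cald1 are small, and the Treg-ablated group holds 2 libraries. Their calls, near the threshold, did not hold in every fit with 1 library left out. Their log2 fold changes moved little in those fits, from −0.40 to −0.32 for Acta2 and from 0.22 to 0.26 for Cald1.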

Other observations

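Some serine peptidases related to Fap cut after proline as it does. Of the 4 tested genes of that list, 0 were called in either direction by edgeR or by DESeq2, limma-voom called 1 lower, and 1 was lower at an unadjusted p under 0.05. Prep, which encodes prolyl endopeptidase, was nearest to the threshold, at −0.19 on the log2 scale (SE 0.0647, adjusted p = 0.0508), with 124 and 129 CPM after ablation against 144, 149 and 142 CPM in controls. It was called lower with RLE size factors, limma-voom, the GC content or gene length offset, or when genes with a single count were kept. Dpp4, the closest relative of Fap, had 3.28 and 3.77 CPM after ablation and 3.16, 3.16 and 2.02 CPM in controls; the ablated libraries lay above the controls, and the gene did not pass (adjusted p = 0.327).

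In the S100 list, S100a6 was the most abundant gene, with 1848 and 1405 CPM after ablation and 1836, 2080 and 1919 CPM in controls. Its log2 fold change of −0.26 did not pass (SE 0.1105, adjusted p = 0.1103). The neutrophil genes S100a8 and S100a9 had at most 16 counts in any library, in cells gated as Ly6G-.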
